A study of Mus musculus with 34 samples.

Results

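The insulin-like growth factor genes described here are Igf1, its receptor gene Igf1r and the binding protein genes Igfbp1 to Igfbp7. They were taken as every probe set whose annotation holds exactly 1 gene symbol, with that symbol being a name in this list. The rule gave 13 probe sets for 8 of the 9 genes, out of 12422 non-control probe sets and 8251 genes on the array. The only Igfbp5 probe set is annotated to Igfbp5 and to a second gene, so Igfbp5 has no value here. Where a gene had several probe sets, its value was that of the probe set with the highest mean over all arrays, and the others are given beside it.

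The study measured mouse pluripotent cells, either taken directly from embryos or grown as stem cell cultures, and somatic cells as controls, on Affymetrix expression microarrays. In all, 32 arrays in 10 groups were used. All groups were C57Bl/6 except the ICM. The pluripotent side held male embryonic germ cells (EGC, 3 arrays, derived from E12.5 germ cells and grown to passage 19 in LIF and serum) and male embryonic stem cells (ESC, 2 arrays, passage 9 to 14, also in LIF and serum). It also held the inner cell mass of E3.5 blastocysts (ICM, 3 arrays, mixed sex, isolated by immunosurgery). ICM replicate 1 came from a cross of [C57Bl/6 x C3H F1] with CD1 F1 mice and ICM replicates 2 and 3 from C57Bl/6 x C3H F1 embryos. Primordial germ cells (PGC), sorted by an Oct4/GFP reporter, came from E13.5 females (3 arrays), E13.5 males (3 arrays) and E11.5 embryos of mixed sex (4 arrays). The somatic side held neural stem/precursor cells (NSC, 2 arrays, neurospheres from the subventricular zone of 8-week mice, passage 1 in EGF). Hematopoietic stem/precursor cells (HSC, 2 arrays) came from bone marrow of 8-week males and were side population cells that were Lin- and CD34- and also c-Kit+ and Sca-1+. Embryonic fibroblasts (MEF, 6 arrays) came from E13.5 embryos of mixed sex and were grown to passage 2 in serum. Somatic cells of gonad plus mesonephros (SGM, 4 arrays) were the reporter-negative fraction of that sort at E11.5, of mixed sex. The labels call replicates biological but do not say how many lines, litters or animals stood behind each group, so p-values measure the spread between these samples only.

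IGF1 and IGF2 are secreted growth factors that act through the receptor tyrosine kinase IGF1R, while IGF2R binds IGF2 and carries it to lysosomes. The IGF binding proteins are secreted carriers that hold IGFs outside the cell and can limit or prolong their action. Binding proteins are cut by proteases, which frees the growth factor. In the fetus IGF signalling is known as a main driver of growth, and many connective tissue cells secrete both IGFs and binding proteins.

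Values are log2 signals from robust multi-array averaging, so a difference of 1 is a doubling in signal, and levels of different probe sets are not set against each other. The column medians ran from 7.17 to 7.37, and the files hold no detection calls, so a low signal cannot be told apart from absence of the transcript. Fewer cells of a type and less RNA per cell cannot be told apart in these bulk samples. The mean over 7 neural stem markers was highest in NSC (10.01 to 10.09), that over 7 blood stem markers in HSC (9.13 to 9.20), that over 10 mesenchyme markers in MEF and SGM, and that over 7 germ cell markers in E11.5 PGC (8.67 to 9.32). The germ cell list did not set the E13.5 germ cells (8.27 to 8.72 in females, 8.04 to 8.15 in males) above ESC (8.51 to 8.52) or ICM (8.48 to 8.67). Arrays within groups differed in some marker lists. PGC E11.5 replicate 4 had a mean of 8.67 over 7 germ cell markers, against 9.30 to 9.32 in the other PGC E11.5 arrays, and its mean over 9 erythroid markers was 7.75. ICM replicate 3 had a mean of 6.82 over 10 trophectoderm markers, whereas ICM replicates 1 and 2 had 8.29 and 8.39. Some results of the comparisons that hold these arrays are also given without them.

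The 250 bases before the annotated gene start are shown for 5 members, because Igfbp3 and Igfbp2 varied most between groups and because Igf1r, Igfbp6 and Igfbp7 had all MEF arrays above every other array. The sequences are RefSeq's for build GRCm38.p6, read 5′ to 3′ on the gene's strand. Capitals mark matches, on either strand, to the motif TATAAA, the motif TATATA (both TATA-like) and the motif GGGCGG (the core of a GC box). No match in these windows overlapped another. Igfbp2 has 2 annotated starts, and the upstream window is shown.
Igfbp3, minus strand, chr11:7213924-7214173: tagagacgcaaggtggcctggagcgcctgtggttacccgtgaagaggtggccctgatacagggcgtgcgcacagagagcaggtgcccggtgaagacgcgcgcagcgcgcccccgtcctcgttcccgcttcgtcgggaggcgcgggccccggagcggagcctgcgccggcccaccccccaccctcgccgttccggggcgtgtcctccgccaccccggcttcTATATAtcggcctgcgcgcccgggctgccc
Igfbp2, plus strand, chr1:72824230-72824479: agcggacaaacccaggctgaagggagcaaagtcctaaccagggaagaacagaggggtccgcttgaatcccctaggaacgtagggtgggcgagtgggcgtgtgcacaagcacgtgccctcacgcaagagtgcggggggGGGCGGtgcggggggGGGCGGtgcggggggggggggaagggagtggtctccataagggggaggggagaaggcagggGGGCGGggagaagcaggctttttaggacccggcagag
Igf1r, plus strand, chr7:67952007-67952256: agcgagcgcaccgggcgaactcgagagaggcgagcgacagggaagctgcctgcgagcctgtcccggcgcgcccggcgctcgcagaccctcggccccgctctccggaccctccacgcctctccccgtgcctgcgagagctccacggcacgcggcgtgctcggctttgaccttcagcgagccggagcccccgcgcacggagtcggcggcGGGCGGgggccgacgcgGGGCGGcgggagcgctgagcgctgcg
Igfbp6, plus strand, chr15:102143936-102144185: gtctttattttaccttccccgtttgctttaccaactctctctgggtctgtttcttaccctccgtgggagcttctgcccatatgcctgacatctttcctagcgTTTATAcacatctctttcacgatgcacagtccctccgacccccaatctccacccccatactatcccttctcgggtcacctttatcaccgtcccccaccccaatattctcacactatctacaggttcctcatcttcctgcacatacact
Igfbp7, minus strand, chr5:77408046-77408295: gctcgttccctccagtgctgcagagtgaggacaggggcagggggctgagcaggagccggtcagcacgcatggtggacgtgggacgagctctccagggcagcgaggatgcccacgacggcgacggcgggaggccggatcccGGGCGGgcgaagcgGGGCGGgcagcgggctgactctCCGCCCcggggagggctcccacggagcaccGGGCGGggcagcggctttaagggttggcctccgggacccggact
The Igfbp3 window held TATATA with its first base at position -30 from the start, no GC box core, and 73.2% G or C. The Igfbp2 window held GGGCGG at -113, -98 and -37 and neither TATA-like motif, with 67.2% G or C. The Igf1r window held GGGCGG at -43 and -26 and the Igfbp7 window at -110, -96, -74 and -44, with 77.6% and 74.0% G or C. The Igfbp6 window, at 49.6% G or C, held TATAAA at -148 and no GGGCGG, so these 3 genes did not share a motif among those searched. Among all 32851 annotated windows of this length, 12.4% held TATAAA, 5.25% held TATATA and 32.7% held GGGCGG, and the median G or C share was 52.4%. A match is a string of letters and was not tested as a binding site. Igfbp3 and Igfbp1 are neighbours on chromosome 11 with 0 protein-coding genes between them, as are Igfbp2 and Igfbp5 on chromosome 1.

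The genes differed widely in how far they varied. For each probe set the span is the highest group mean minus the lowest, and its median over all probe sets was 1.14. Igfbp3 spanned 7.21, larger than 99.6% of probe sets, with MEF highest and HSC lowest. Igfbp2 spanned 5.69, larger than 98.8%, with NSC highest and HSC lowest. The other 6 genes spanned between 0.53 and 1.66 by their brightest probe set. Among the dimmer probe sets, Igf1 95546_g_at spanned 2.18 and Igfbp4 101571_g_at spanned 1.72.

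**Figure D1:**
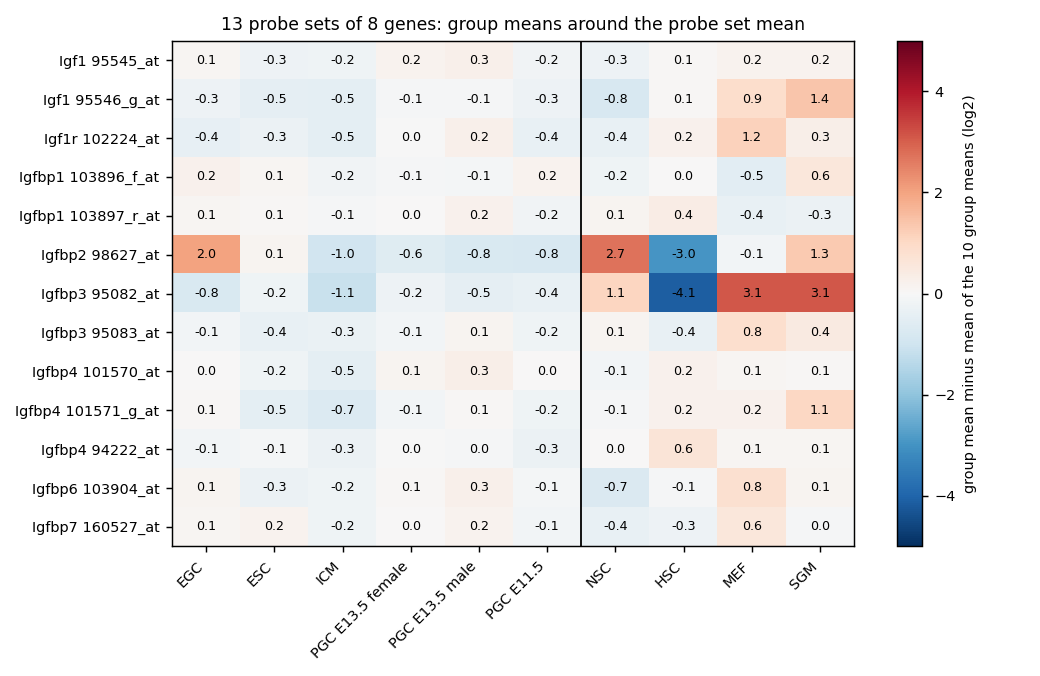
Group means of the 13 probe sets minus the mean of the 10 group means for that probe set (log2, colour and number in each cell), with the 6 pluripotent groups left of the line and the 4 somatic groups right of it. Igfbp3 (95082_at, span 7.21) and Igfbp2 (98627_at, span 5.69) carry the strongest colours, and most other rows stay pale.

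Igf1, the growth factor itself, is measured by 2 probe sets that gave different patterns. The brighter, 95545_at, was nearly level: its group means ran from 9.11 in ESC to 9.65 in E13.5 male PGC, a span smaller than that of most probe sets (percentile 14.8). Every pair of groups next to each other in its order overlapped in their arrays. The dimmer, 95546_g_at, separated the embryonic somatic cells from the rest. Its values in SGM were 7.87, 7.72, 7.38 and 7.49, and the 6 MEF arrays ran from 6.75 to 7.44 with a median of 7.12. The 2 HSC arrays were at 6.51 and 6.06 and the 2 NSC arrays at 5.28 and 5.60. All 18 pluripotent arrays lay between 5.54 and 6.40, below every SGM and MEF array. The g in this suffix marks probes that, in the manufacturer's naming, may also match related transcripts, so both probe sets are kept in view. Igf2, the second growth factor of the pathway, is described with the other pathway genes below.

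Igf1r, the receptor through which both growth factors signal, was highest in MEF. Its 6 MEF arrays ran from 8.64 to 9.04 with a median of 8.80, above every other array. SGM had 8.07, 7.83, 8.05 and 7.89, and HSC had 7.89 and 7.81, so these overlapped. Among germ cells, E13.5 male PGC had 7.87, 7.82 and 8.00, E13.5 female PGC had 7.61, 7.69 and 7.64, and E11.5 PGC had 7.32, 7.23, 7.20 and 7.36, so the 3 germ cell groups did not overlap. ESC (7.53 and 7.22), NSC (7.20 and 7.40), EGC (7.25, 7.48 and 7.04) and ICM (7.21, 6.93 and 7.36) filled the lower end with overlapping arrays.

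Igfbp3, known as the main IGF carrier in blood serum, divided the groups into clear tiers. Its 6 MEF arrays ran from 13.75 to 14.17 with a median of 13.90, and SGM had 13.96, 13.83, 13.77 and 14.21. NSC followed with 12.38 and 11.47. These 3 somatic groups lay above every pluripotent array. The tier below held ESC (10.61 and 10.67), E13.5 female PGC (10.69, 10.51 and 10.62), E11.5 PGC (10.71, 10.58, 10.31 and 10.34) and E13.5 male PGC (10.54, 10.39 and 10.26). Neighbours in this tier overlapped, while ESC lay above E13.5 male PGC without overlap. EGC had 10.16, 10.03 and 10.05 and ICM had 10.10, 9.75 and 9.41. HSC stood apart at 6.38 and 7.11, below all other arrays. The gaps between neighbours in this order that did not overlap were SGM over NSC (2.02), NSC over ESC (1.29), E13.5 male PGC over EGC (0.32) and ICM over HSC (3.01). The dimmer Igfbp3 probe set 95083_at was also highest in MEF (8.62 ± 0.24, SD, n = 6) and SGM (8.23 ± 0.09, SD, n = 4) but spanned only 1.20. Over the 10 group means the Igfbp3 probe sets had a Pearson r of 0.84, given as a description.

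Igfbp2, a binding protein known for its abundance in the fetus and in the brain, followed another order. NSC had 12.39 and 11.44, EGC had 11.42, 10.98 and 11.20, and SGM had 10.54, 10.29, 10.19 and 11.01. The NSC arrays lay above all EGC arrays by a narrow margin, and EGC and SGM overlapped. ESC (9.47 and 9.18) and MEF (8.87 to 9.24, median 9.06, n = 6) came next and overlapped. The 3 PGC groups and ICM lay close together: E13.5 female PGC had 8.56, 8.63 and 8.59, E13.5 male PGC had 8.62, 8.08 and 8.56, E11.5 PGC had 8.43, 8.50, 8.11 and 8.57, and ICM had 8.30, 8.27 and 8.10. HSC was lowest, at 5.85 and 6.60. The pluripotent groups therefore did not share a level, since EGC lay above ESC and ESC above the germ cells and ICM with no overlap of their arrays.

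**Figure D2:**
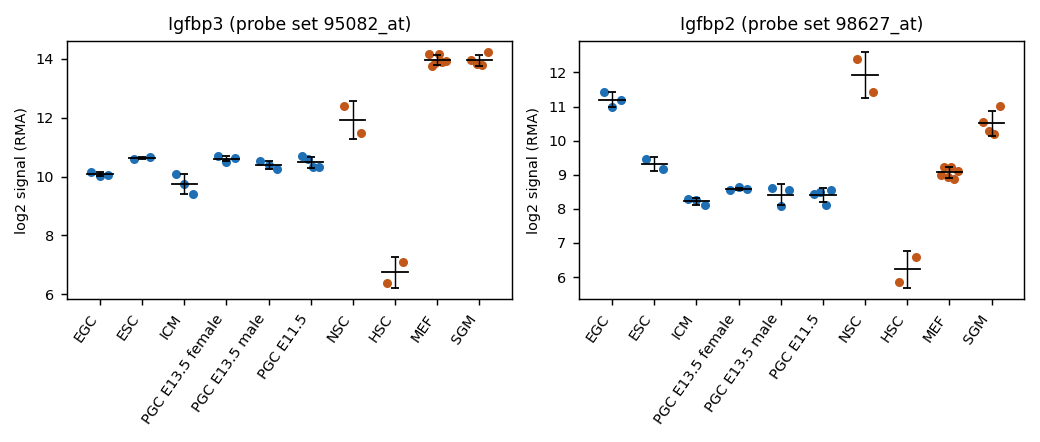
Log2 signal of Igfbp3 (left) and Igfbp2 (right) on each array (points) by group, with the group mean (horizontal bar) and SD (vertical bar); pluripotent groups are blue and somatic groups orange. Igfbp3 is near 14 in MEF and SGM and at 6.38 and 7.11 in HSC, while Igfbp2 is highest in NSC and EGC.

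Igfbp6, a binding protein with a preference for IGF2, and Igfbp7, a secreted protein of the extracellular matrix that binds IGFs weakly, resembled Igf1r in having MEF on top. For Igfbp6, MEF ran from 9.00 to 9.30 with a median of 9.21, above every other array, and NSC was lowest with 7.67 on both arrays. Its other group means lay between 8.12 in ESC and 8.66 in E13.5 male PGC. For Igfbp7, MEF ran from 7.71 to 8.11 with a median of 7.79, also above every other array. The remaining Igfbp7 group means ran from 6.94 in NSC to 7.49 in E13.5 male PGC and neighbours mostly overlapped.

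**Figure D3:**
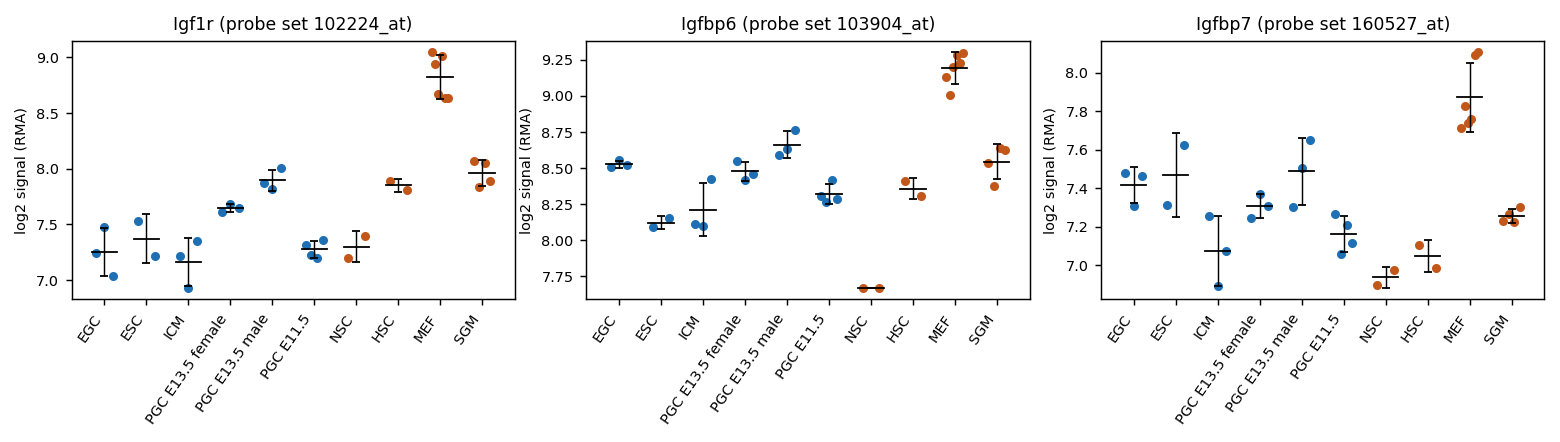
Log2 signal of Igf1r, Igfbp6 and Igfbp7 on each array (points) by group, with the group mean (horizontal bar) and SD (vertical bar); pluripotent groups are blue and somatic groups orange. In each panel the 6 MEF arrays lie above all other arrays.

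Igfbp4, an inhibitory binding protein cut by the protease PAPP-A, is measured by 3 probe sets whose orders differed. On the brightest, 94222_at, HSC was highest with 9.33 and 9.59, above all other arrays, and the other group means lay between 8.53 and 8.92 with overlapping neighbours. On 101571_g_at, SGM was highest with 8.69, 8.75, 8.87 and 8.71, above every other array. MEF followed with 7.76 to 8.03 (median 7.93) and ICM was lowest with 7.21, 6.92 and 6.99. The third, 101570_at, spanned 0.78. Igfbp1, a binding protein known from liver and under insulin control, had low signals on both probe sets. On 103897_r_at its group means ran from 5.87 in MEF to 6.64 in HSC and all neighbours overlapped, and on 103896_f_at from 3.99 in MEF to 5.12 in SGM. The r and f suffixes also mark probe sets with relaxed or shared probes in the manufacturer's naming. The mean 10th percentile of an array was 4.76.

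**Figure D4:**
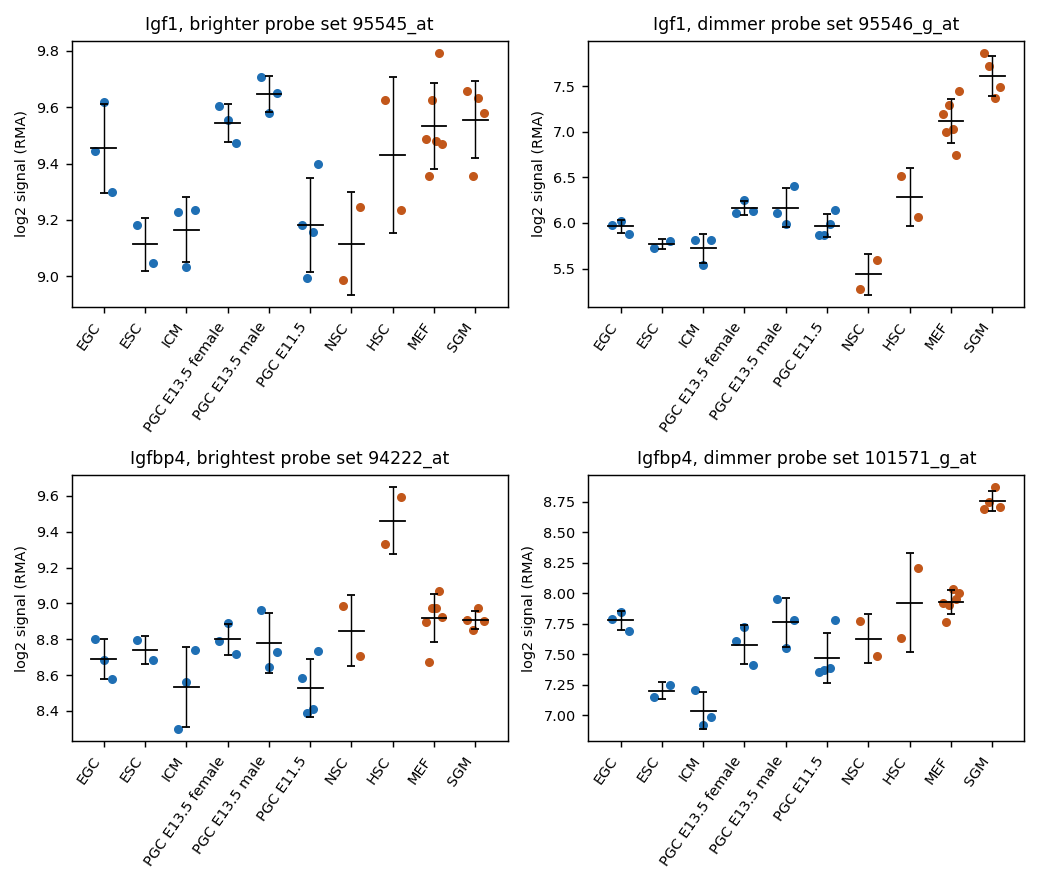
Log2 signal on each array (points) by group for the brighter and dimmer Igf1 probe sets (top) and for 2 Igfbp4 probe sets (bottom), with the group mean (horizontal bar) and SD (vertical bar); pluripotent groups are blue and somatic groups orange. The dimmer probe set of each gene is highest in SGM, while the brighter Igf1 probe set stays between 8.99 and 9.79 and the brightest Igfbp4 probe set is highest in HSC.

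Differences between groups were tested with limma over all genes, by the brightest probe set, with Benjamini-Hochberg adjustment. A gene is called higher or lower at an adjusted p under 0.05. Since these groups are very different cell types, a large part of all genes passed the test in most comparisons, and the members' counts are read against that share.

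E11.5 germ cells were set against the somatic cells of the same gonad and mesonephros. Of 8 member genes, 6 were lower in PGC E11.5, 0 were higher and 2 did not pass, where 50.2% of all genes were called. Over probe sets 9 of 13 were lower, where 44.6% of all probe sets were called. The median member difference was -0.38, against -0.04 over all genes. Igfbp3 was lower by 11.0-fold (log2 difference -3.46 ± 0.17, SE; limma adjusted p = 5.63e-16, n = 4 and 4), and its dimmer probe set by 1.55-fold, with -2.05 for the mean of both. Igfbp2 was lower by 4.30-fold (-2.10 ± 0.19; limma adjusted p = 1.78e-10). Igf1r was lower by 1.61-fold and Igfbp4 by 1.30-fold, or by 2.44-fold on 101571_g_at. Igf1 was lower by 1.30-fold on its brighter probe set with overlapping arrays, and by 3.12-fold on 95546_g_at without overlap, with -1.01 for the mean of both. The Igfbp6 difference of -0.23 passed (limma adjusted p = 0.0185) but not without PGC E11.5 replicate 2 (0.0526), SGM replicate 3 (0.0654) or SGM replicate 4 (0.0624). Igfbp1 (0.10, 95% interval -0.14 to 0.33) and Igfbp7 (-0.09, -0.30 to 0.11) did not pass. Marker lists of other cell types moved with this comparison: the mean over 10 mesenchyme markers was 7.57 to 7.95 in PGC E11.5 and 10.6 to 11.0 in SGM, and the mean over 9 erythroid markers was 6.83 to 7.75 in PGC E11.5 and 9.40 to 9.98 in SGM. Their part in the result was not tested. Without PGC E11.5 replicate 4 the count was also 6, Igfbp3 was at -3.41, and Igfbp1 103896_f_at passed (-0.49; 0.0267), which it did not with all arrays (-0.39; 0.0594).

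Germ cells at E13.5 were set against those at E11.5 in each sex. In males 5 of 8 genes were higher at E13.5 than at E11.5 and 0 lower, where 52.4% of all genes were called, and 7 of 13 probe sets were higher, where 47.3% of all probe sets were called. Igf1r was higher by 1.54-fold (0.62 ± 0.12, SE; limma adjusted p = 1.51e-04), Igf1 by 1.38-fold, Igfbp1 by 1.30-fold, Igfbp6 by 1.27-fold and Igfbp7 by 1.25-fold. The other Igfbp1 probe set, 103896_f_at, had -0.29 and did not pass, and the mean of both gave 0.05 (adjusted p = 0.75), so the Igfbp1 call rests on 103897_r_at. The median over all genes was itself 0.15 in this comparison, and the members' median was 0.33. With each array centred on its median, Igfbp1 (0.29, adjusted p = 0.0522) and Igfbp7 (0.24, adjusted p = 0.063) no longer passed, and neither passed without E13.5 male PGC replicate 3 (adjusted p = 0.072 and 0.101). In females 2 of 8 genes were higher and 0 lower, where 31.5% of all genes were called, and 2 of 13 probe sets, where 27% of all probe sets were called. These were Igf1r (0.37 ± 0.12; limma adjusted p = 0.0173) and Igf1 (0.36 ± 0.11; 0.0149). Igf1 lost its call without PGC E11.5 replicate 2 (0.0658) or E13.5 female PGC replicate 1 (0.0653), and Igf1r without E13.5 female PGC replicate 2 (0.0651). Igf1 95546_g_at did not pass in either sex (0.20 in males and 0.19 in females). With all 32 arrays weighing equally, Igfbp4 94222_at did not pass in either sex (0.25 in males and 0.27 in females). It passed in both without PGC E11.5 replicate 4 (0.32 in males and 0.34 in females) and without ICM replicate 1. Of 32 fits that left out 1 array, it passed in 4 in males and in 2 in females. It also passed with array weights (limma adjusted p = 0.0055 in males and 0.00278 in females). In males Igfbp4 101570_at passed with all arrays (0.28; limma adjusted p = 0.0495), a call lost in 23 of 32 fits that left out 1 array, and 101571_g_at passed (0.39; 0.0106) only without PGC E11.5 replicate 4 or in 3 other such fits. With the replicate number as a block 94222_at also passed, at 0.28 in males (adjusted p = 0.0454) and 0.30 in females (0.0484). Both comparisons share the E11.5 arrays. Igfbp2 and the brighter Igfbp3 probe set, the widest ranging over the groups, did not pass in either: Igfbp3 95082_at differed by -0.09 in males (95% interval -0.45 to 0.28) and 0.12 in females (-0.25 to 0.49). The dimmer Igfbp3 probe set 95083_at was higher in males (0.32; limma adjusted p = 0.0373), a call lost in 6 of 32 fits that left out 1 array. The mean over 10 mesenchyme markers was 8.09 to 8.26 in E13.5 male PGC, 7.88 to 8.06 in E13.5 female PGC and 7.57 to 7.95 in E11.5 PGC, and that over 7 germ cell markers was 8.04 to 8.15, 8.27 to 8.72 and 8.67 to 9.32 in the same groups. In males the means over 9 gonad somatic markers (7.16 to 7.23, against 6.81 to 6.97 at E11.5) and 9 endothelium markers (7.03 to 7.17, against 6.63 to 6.92 at E11.5) also lay above those at E11.5 without overlap. Their part in the results was not tested.

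Female against male germ cells at E13.5 gave 0 of 8 genes and 0 of 13 probe sets past the threshold, by limma. At an unadjusted p under 0.05 the count over genes was also 0. Over all genes 8.62% were called, and over all probe sets 6.85%. The nearest to the threshold were Igfbp6 (-0.19, 95% interval -0.37 to 0.00) and Igf1r (-0.25, -0.51 to 0.01), whose arrays did not overlap between the sexes, with female values lower.

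Among the cultured and early embryonic pluripotent cells Igfbp2 varied most. ESC against ICM called 3 of 8 genes higher and 0 lower, where 27.8% of all genes were called, and 3 of 13 probe sets higher, where 27.3% of all probe sets were called. Igfbp2 was 2.14-fold higher in ESC (1.10 ± 0.24, SE; limma adjusted p = 0.00108, n = 2 and 3). Igfbp3 was 1.84-fold higher (0.88 ± 0.21; limma adjusted p = 0.0028) on 95082_at, while 95083_at did not pass (-0.04), and the difference of their mean was 0.42. Igfbp7 was 1.31-fold higher (0.39 ± 0.13; 0.0214) but did not pass without ESC replicate 2 (0.313) or ICM replicate 2 (0.103), or in a fit of these groups alone (0.208). The mean over 10 trophectoderm markers was 6.57 to 6.75 in ESC and 6.82 to 8.39 in ICM, and that over 10 primitive endoderm markers was 7.87 to 7.97 in ESC and 8.77 to 9.15 in ICM. Their part was not tested. Without ICM replicate 3, Igfbp2 was at 1.04 (limma adjusted p = 0.00486) and Igfbp3 at 0.71 (0.02), and Igfbp4 101570_at passed (0.39; 0.0404), which it did not with all arrays (0.25). Without ICM replicate 1, the array from the other cross, Igfbp2 and Igfbp3 were at 1.14 and 1.05. The remaining ICM arrays also differed from ESC in strain, so leaving out replicate 1 did not make the strains equal. The ICM was also of mixed sex and taken from embryos, while ESC were male and cultured. The part of strain, sex and culture in these differences was not tested.

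EGC against ESC, lines grown in the same kind of medium, called 3 of 8 genes higher and 1 lower, where 39.4% of all genes were called, and 4 of 13 probe sets higher and 1 lower, where 38.6% of all probe sets were called. Igfbp2 was 3.67-fold higher in EGC (1.88 ± 0.24, SE; limma adjusted p = 8.48e-07, n = 3 and 2). Igfbp6 was 1.32-fold higher (0.41 ± 0.10; 0.00244). Igfbp4 101571_g_at was 1.49-fold higher (0.58, limma adjusted p = 0.00301), where the brightest Igfbp4 probe set 94222_at had -0.05 and did not pass. Igf1 was higher by 0.34 (0.0458) and Igfbp3 lower, at -0.56 (0.039). Those calls lay near the threshold. Igf1 lost its call in 16 of 32 fits that left out 1 array, and most of these left out an array of another group. In those its difference stayed at 0.34 and its limma adjusted p was at most 0.0519. Without ESC replicate 1 or 2 the Igf1 difference was 0.41 or 0.27. Igfbp3 lost its call without any of the 5 arrays compared, with differences of -0.599 to -0.529. Its limma adjusted p was 0.0536 to 0.0878 in the fits without an EGC array. Igf1 95546_g_at had 0.19 and did not pass, and the mean of both Igf1 probe sets gave 0.27 (limma adjusted p = 0.0885). Igfbp3 95083_at had 0.22 and did not pass, and the mean of both Igfbp3 probe sets gave -0.17 (0.386). Igfbp3 was also at -0.50 (0.0658) with the replicate number as a block. EGC against E13.5 male germ cells, whose E12.5 counterparts gave rise to EGC, called 1 gene higher and 1 lower, where 30.7% of all genes were called, and likewise 1 and 1 of 13 probe sets, where 27.7% of all probe sets were called. Igfbp2 was 6.87-fold higher in EGC (2.78 ± 0.21; limma adjusted p = 9.79e-11, n = 3 each) and Igf1r was 1.56-fold lower (-0.64 ± 0.13; 2.59e-04). These comparisons share the EGC arrays. The mean over 7 germ cell markers was 6.96 to 7.05 in EGC, 8.51 to 8.52 in ESC and 8.04 to 8.15 in E13.5 male PGC, and that over 10 mesenchyme markers was 8.20 to 8.35 in EGC, 7.86 to 8.06 in ESC and 8.09 to 8.26 in E13.5 male PGC. Their part was not tested.

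Cultured fibroblasts and freshly sorted SGM differed in Igf1r and in several binding proteins. Their difference on the brighter Igfbp3 probe set did not pass (0.01, 95% interval -0.30 to 0.32). The dimmer Igfbp3 probe set 95083_at was higher in MEF (0.40, limma adjusted p = 0.00269). MEF against SGM called 3 of 8 genes higher and 1 lower, where 49.8% of all genes were called, and 4 of 13 probe sets higher and 4 lower, where 44.3% of all probe sets were called. Igf1r was 1.82-fold higher in MEF (0.86 ± 0.10, SE; limma adjusted p = 2.63e-08, n = 6 and 4), Igfbp6 1.56-fold and Igfbp7 1.53-fold. Igfbp2 was 2.72-fold lower (-1.44 ± 0.17; limma adjusted p = 3.48e-08). The dimmer probe sets Igf1 95546_g_at (-0.50), Igfbp4 101571_g_at (-0.83) and Igfbp1 103896_f_at (-1.12) were lower in MEF where the brighter probe sets of the same genes did not pass. The mean over 9 erythroid markers was 6.61 to 6.81 in MEF and 9.40 to 9.98 in SGM, and over 9 gonad somatic markers 6.94 to 7.07 in MEF and 8.09 to 8.34 in SGM. The mean over 10 mesenchyme markers was higher in MEF (11.8 to 12.1) than in SGM (10.6 to 11.0). Their part was not tested.

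Each adult stem cell group was set against the mean of the other 3 somatic groups, each weighing equally. NSC had 1 of 8 genes higher and 4 lower, where 58.9% of all genes were called, and 1 of 13 probe sets higher and 6 lower, where 56.6% of all probe sets were called. Igfbp2 was 9.95-fold higher in NSC (3.31 ± 0.20, SE; limma adjusted p = 8.73e-14, n = 2 and 12), or 2.13 on the log2 scale against MEF and SGM alone. Igfbp6 was 2.03-fold lower, Igf1r 1.88-fold and Igfbp7 1.37-fold. Igfbp4 94222_at did not pass (-0.25, limma adjusted p = 0.0594), but 101571_g_at was lower (-0.57, 3.38e-04). The mean of the Igfbp4 probe sets gave -0.36 (0.00173). Igf1 was 1.31-fold lower, a call lost without NSC replicate 1 (adjusted p = 0.171), and 2.97-fold lower on 95546_g_at. The Igfbp3 difference of 0.38 did not pass, and against MEF and SGM alone it was -2.02 (limma adjusted p = 1.73e-10), because HSC then no longer enters the mean. It passed without NSC replicate 2 (0.83; 0.00202) and without HSC replicate 2 (0.50; 0.0162). HSC had 2 of 8 genes higher and 3 lower, where 64.4% of all genes were called, and 2 of 13 probe sets higher and 5 lower, where 62.5% of all probe sets were called. Igfbp3 was 92.4-fold lower in HSC (-6.53 ± 0.18; limma adjusted p = 2.37e-21, n = 2 and 12) and Igfbp2 19.3-fold lower (-4.27 ± 0.20; 2.39e-16). On Igfbp3's dimmer probe set the difference was 1.76-fold, and the mean of both gave -3.67. Igfbp4 (0.57) and Igfbp1 (0.56) were higher in HSC, and Igfbp7 was lower (-0.31), a call lost without HSC replicate 2 (adjusted p = 0.152). The other probe sets gave other values: Igfbp4 101571_g_at had -0.18 and Igfbp1 103896_f_at 0.07, neither past the threshold. The means of probe sets gave 0.20 (0.0602) for Igfbp4 and 0.31 (0.0256) for Igfbp1. Igf1 did not pass on its brighter probe set (0.03) but was lower on 95546_g_at (-0.44, limma adjusted p = 0.0104). Without HSC replicate 2 the latter was at -0.21. Against MEF and SGM alone, Igf1r (-0.54) and Igfbp6 (-0.51) also passed as lower in HSC. The mean over 10 mesenchyme markers was 6.65 to 6.79 in NSC, 6.83 to 6.86 in HSC, 11.8 to 12.1 in MEF and 10.6 to 11.0 in SGM. In HSC the mean over 10 macrophage markers was 7.47 to 7.59, against 6.60 to 6.77 in MEF and 6.40 to 6.80 in SGM. That over 9 endothelium markers was 8.08 to 8.15 in HSC and 7.33 to 7.56 in SGM. Both means were highest in HSC among all groups. The part of these marker lists in the differences was not tested.

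All 6 pluripotent groups against all 4 somatic groups, each group weighing equally, called 0 of 8 genes higher and 4 lower, where 63.9% of all genes were called, and 0 of 13 probe sets higher and 7 lower, where 60.9% of all probe sets were called. Igfbp3 was 2.49-fold lower in pluripotent cells (-1.32 ± 0.09, SE; limma adjusted p = 3.63e-13, n = 18 and 14), Igf1r 1.46-fold, Igfbp2 1.32-fold and Igfbp4 1.28-fold. The brighter Igf1 probe set did not pass (-0.06), but 95546_g_at was lower (-0.65, limma adjusted p = 5.10e-09). The mean of both Igf1 probe sets gave -0.36 (9.06e-07). This contrast averaged unlike somatic groups. With HSC and NSC left out of the somatic mean, Igfbp3 was at -3.62, Igf1r at -0.96 and Igfbp2 at -0.76. In that setting Igfbp6 (-0.48), Igfbp7 (-0.25) and Igf1 (-0.20) also passed as lower, and Igfbp1 passed as higher (0.35). With MEF left out, a setting chosen after seeing the data, Igfbp3 was at -0.55 and Igf1r at -0.27. Igfbp6 (0.20) and Igfbp7 (0.24) then passed as higher, so their direction changed with the somatic groups averaged.

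**Figure D5:**
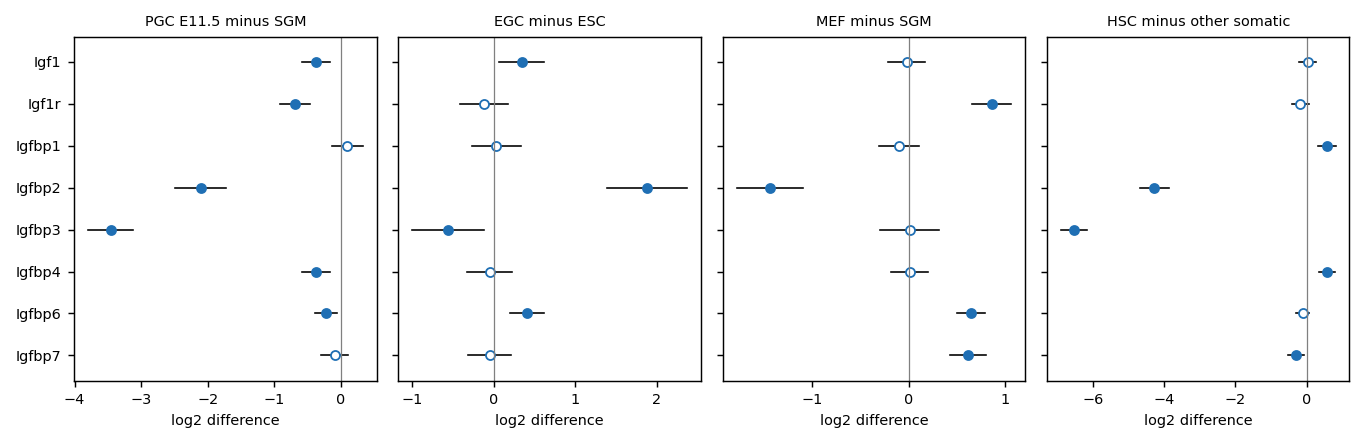
Log2 difference (first named minus second) of the 8 member genes in 4 comparisons, each point the limma estimate with its 95% interval as a line; filled points passed an adjusted p of 0.05 and open points did not. Horizontal scales differ between panels. Igfbp3 is at -3.46 in PGC E11.5 minus SGM and at -6.53 in HSC minus the other somatic groups, and Igfbp2 is above 0 only in the panel of EGC minus ESC.

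Other genes of the IGF and insulin pathway were taken from a list of 52, of which 37 were measured. Each count below stands beside the share of all genes called in that comparison. Pluripotent against somatic had 11 higher and 15 lower (63.9% of all genes). PGC E11.5 against SGM had 11 and 12 (50.2%), and MEF against SGM had 10 and 4 (49.8%). NSC had 10 and 13 (58.9%) and HSC 12 and 8 (64.4%). EGC against ESC had 6 and 6 (39.4%), EGC against E13.5 male PGC 5 and 6 (30.7%) and ESC against ICM 7 and 4 (27.8%). E13.5 against E11.5 had 8 and 3 in females (31.5%) and 13 and 6 in males (52.4%), and female against male PGC had 5 and 0 (8.62%). Igf2, the fetal growth factor and an imprinted gene, was highest in MEF and SGM. Its probe set 98623_g_at had 15.72 to 15.86 in MEF and 15.67 to 15.92 in SGM, where 13 probe sets of the array exceeded 16 on an MEF array. E11.5 PGC had 12.29, 11.84, 11.58 and 12.67, while NSC had 9.03 and 9.32 and HSC 10.07 and 9.70. The other Igf2 probe set, 98622_at, spanned only 0.56. Igf2r, which clears IGF2, had 11.58 to 12.26 in MEF, 11.21 to 11.73 in SGM, 8.44 and 8.53 in NSC and 7.36 and 8.30 in HSC. Insr, the insulin receptor gene, spanned 0.65. At E13.5 Igf2r was higher in female PGC (11.18, 10.76 and 11.25) than in male PGC (9.97, 9.98 and 9.77), with no overlap.

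Among the list's largest called differences, Socs2, an inhibitor of growth hormone signalling, was 17.7-fold higher in PGC E11.5 (9.13) than in SGM (4.99). Ghr, the growth hormone receptor gene, was 2.56-fold lower. Ghr was 7.40-fold higher in MEF than in SGM and Htra1, a secreted serine protease that can cut binding proteins, 3.87-fold. In NSC against the other somatic groups, Adam12, a metalloprotease that can cut Igfbp3, was 3.73-fold higher (6.62 against 4.72) and Ghr 7.78-fold lower. The lower levels of Socs2 and Adam12 in these comparisons lay near the mean 10th percentile of an array (4.76), so those folds are less firm. In HSC, Socs2 was 8.63-fold higher, Ghr 5.79-fold lower and Htra1 5.71-fold lower. Socs2 was 3.68-fold higher in ESC than in ICM and 3.65-fold lower in EGC than in ESC, comparisons that share the ESC arrays. In E13.5 female PGC, Htra1 was 2.41-fold higher and Socs2 2.63-fold lower than at E11.5, and in males Igf2bp1, an RNA-binding protein gene named for Igf2 mRNA, was 2.12-fold lower.

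The genes with the pattern most like each member were found by Pearson correlation over the 10 group means, among 3368 or 3369 genes whose group means had an SD of at least 0.5. These are descriptions over points that share arrays and normalization. Igfbp3 was most like Calu (0.94), Prkd1 (0.94) and Gas1 (0.93), and Igfbp2 was most like Cdk2ap1 (0.97), Crmp1 (0.96) and Dmd (0.94). Igf1r was most like Vegfd (0.93), Igsf10 (0.93) and Aebp1 (0.92), Igfbp6 most like Myo1c (0.94) and Igfbp7 most like Ccl2 (0.91). Igfbp4 was most like Inpp5k (0.96), Igfbp1 most like Rbm38 (0.94) and Igf1 most like Spn (0.88). Among the members, Igf1 95546_g_at and Igfbp4 101571_g_at had a correlation of 0.84, and Igfbp3 and Igfbp1 103897_r_at one of -0.80.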

How the data were processed

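Expression was measured on Affymetrix arrays with 12488 probe sets, of which 66 controls were left out. The deposited values are log2 signals that the authors made by RMA, per the submitters' processing notes; its version is not given in the sources used here. Of 34 columns, 2 were averages of others to within 1e-06 (PGC E11.5 replicate 5, the mean of replicates 1 to 4, and ESC replicate 3, the mean of replicates 1 and 2) and were left out. Probe sets were named from the platform annotation, updated by gene ID for 10817 of 10833 with 1 symbol; 396 had several symbols and 1193 none. All groups entered 1 limma 3.58.1 fit (R 4.3.3) with empirical Bayes (22 residual degrees of freedom), contrasts between group means, and Benjamini-Hochberg adjustment over all 8251 genes or all 12422 probe sets. The spread was a median residual SD of 0.16, and the number of arrays limits the precision. The procedure was tested on simulated data for PGC E11.5 against SGM only, with a small part of the genes changed. That test does not cover the smaller ESC, NSC and HSC groups or comparisons where a large part of all genes was called.

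Named members were all genes of the rule. Named pathway genes were drawn from up to 2 highest and 2 lowest called differences per comparison, and correlates from the 3 highest per member. Only some of these are given in the text. The members and lists were chosen with earlier results of these data known. Igf2, Igf2r and Insr were named for their role. Replicate numbers were checked as pairs: deviations of same-numbered arrays correlated between -0.57 and 0.52 over 45 pairs of groups, so they were not treated as pairs. Alternatives were the low-signal filter, other probe set rules, array centring, array weights, an intensity trend, single comparisons, a replicate block, and leaving out each array.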

Additional observations from a re-analysis of the deposited data

Results flagged for a closer look

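Of 51 sets of 4 to 10 arrays (a probe set in a group), 1 held an array far from the others by Dixon's criterion, which chance flags in about 1 of 20 such sets. On Igfbp4 101571_g_at, PGC E11.5 replicate 4 was at 7.78 while the other arrays of the group were between 7.35 and 7.39. The same array had the lowest germ cell marker mean of its group (8.67) and the highest erythroid marker mean (7.75); their part in this value was not tested.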

How the results depend on the processing

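Of 88 differences (8 genes in 11 comparisons), 62 kept their side of the threshold in every alternative, and their direction where they were called. A change of sign between fits that both missed the threshold was not counted. The number of member genes called moved by over 1.5 times in these cases: MEF against SGM gave 8 when a gene counted with any 1 of its probe sets called and 7 with the mean of a gene's probe sets, against 4; EGC against ESC gave 2 with the mean of probe sets, against 4; E13.5 male against E11.5 PGC gave 3 with arrays centred on their medians, against 5; and pluripotent against somatic gave 8 with the adult groups left out, against 4. Leaving out each array gave 1 to 3 in E13.5 female against E11.5 PGC, 3 to 6 in E13.5 male against E11.5 PGC and 2 to 4 in EGC against ESC.

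Among differences called in the main fit or in the alternative, directions turned 4 times. The cause was not tested beyond the construction of each setting. Igfbp4 in MEF against SGM was at -0.27 with the mean of probe sets, which disagree, against 0.01. Igfbp7 in pluripotent against somatic was at -0.25 without the adult groups, against 0.04. Igfbp3 in NSC was at -2.02 without HSC in the mean, against 0.38. Igfbp6 in pluripotent against somatic was at 0.20 without MEF, a setting chosen after seeing the data, against -0.05. The replicate block changed no call among these 88 beyond Igfbp4 in both E13.5 comparisons with E11.5 (0.28 and 0.30, gained) and Igfbp3 in EGC against ESC (-0.50, lost). Igfbp1 could not be tested where probe sets with a highest group mean under 7, or with suffixes beyond a plain _at, were left out. With 2 arrays in ESC, NSC and HSC and no detection calls, low signals and differences near the residual SD are the least firm.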
